A study of Rattus norvegicus with 30 samples.

Results

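The genes described are 10 receptors and enzymes of the endocannabinoid system, namely *Cnr1*, *Cnrip1*, *Trpv2*, *Dagla*, *Daglb*, *Napepld*, *Faah*, *Mgll*, *Abhd6* and *Abhd12*. They were chosen by gene symbol and function, with earlier results of these data known, and all 10 were found among the 21993 genes listed. They were measured by RNA-seq in primary hippocampal neurons of wild-type Wistar rats, taken at embryonic day 18 and cultured for 7 days. The cultures received 30 µM dimethyl fumarate (DMF), 30 µM monomethyl fumarate (MMF) or 6 µM cannabidiol (CBD) for 4 or 24 h. DMF and MMF were given in dimethyl sulfoxide (DMSO) and CBD in ethanol (EtOH), and all cultures, the vehicle controls included, held 0.2% of vehicle. Each of the 10 groups had 3 libraries with the replicate numbers 1 to 3, and the study states 3 repeats of the experiment without saying which number belongs to which repeat.

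Endocannabinoids are lipid messengers that neurons make on demand and release backwards across the synapse, where they act on receptors of the presynaptic terminal and reduce transmitter release. The main ones are 2-arachidonoylglycerol (2-AG) and anandamide, and each has its own enzymes of synthesis and breakdown. In the hippocampus, the CB1 receptor is known for its high level on interneurons that contain cholecystokinin and its lower level on glutamatergic terminals. CBD is a plant cannabinoid that binds the CB1 receptor weakly. DMF and MMF are not cannabinoids and are known as activators of the transcription factor Nrf2. DMF is the dimethyl ester of fumaric acid, and MMF, with 1 methyl ester, is its main metabolite.

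Between 15108132 and 25367834 reads per library lay on genes, with a median of 20088658, so that each member was counted from at least 78 reads in every library. Markers of neurons summed to between 2848 and 4105 CPM (reads of a gene scaled to the same total in every library) and those of astrocytes to between 1843 and 4871 CPM. Markers of the oligodendrocyte lineage summed to 465 to 1093 CPM, those of glutamatergic neurons to 1151 to 1669 CPM, those of GABAergic interneurons to 311 to 549 CPM, those of endothelial cells to 6.65 to 13.4 CPM and those of microglia to 1.17 to 10.1 CPM. The cultures thus held RNA of glia beside that of neurons, and of the 7 microglial markers, 5 were at 0 in at least 1 library. In such a bulk sample, fewer cells of a type and less RNA per cell cannot be told apart.

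Because Nrf2 acts through the antioxidant response element, the core of that element, TGACNNNGC, was searched on both strands of the promoters, from 250 bases before to 50 bases after the RefSeq start (build GRCr8). A promoter was listed for 8 of the 10 members, *Cnr1* and *Dagla* being those without an entry. The core was present in 3 of these 8, and in 12.1% of all 33469 promoters. These shares differ in unit, since the first counts genes and the second counts promoter entries. The matches are shown 5′ to 3′ on the strand of the gene, with the core in capitals and up to 10 bases on each side, since they are the feature through which a direct response to DMF could be looked for. A match in letters is a description and was not tested as a binding site.
*Napepld*, chr4:14253207-14253235, plus strand, core starting 43 bases before the start: gccccgccccTGACACGGCcccccgccca
*Faah*, chr5:134735622-134735646, minus strand, core 244 bases before the start and on the opposite strand: ctagggGCCGGGTCAaggaaaccgg
*Daglb*, chr12:16215709-16215737, minus strand, core starting 31 bases after the start and on the opposite strand: ccggacaagcGCAGAGTCAgaagggcgcg

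All 10 genes were expressed in every group, and the group means of a gene differed little. *Cnr1*, which encodes the CB1 receptor, lay between 400 CPM in a library of DMF at 4 h and 521 CPM in a library of CBD at 24 h. Its group means ran from 425 ± 21.6 CPM (SD, n = 3) with DMF at 4 h to 508 ± 9.19 CPM with DMSO at 24 h. *Napepld*, the member with the fewest reads, had the widest range of group means, from 5.80 CPM with EtOH at 24 h to 7.99 CPM with DMF at 4 h, a ratio of 1.38. For the other 8 members, this ratio lay between 1.12 for *Cnrip1* and 1.34 for *Trpv2*. For single genes, CPM were further scaled between libraries by TMM, with a prior count added, unlike the sums of markers above. Levels are compared within a gene and not between genes, because the values are not divided by transcript length.

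**Figure D1:**
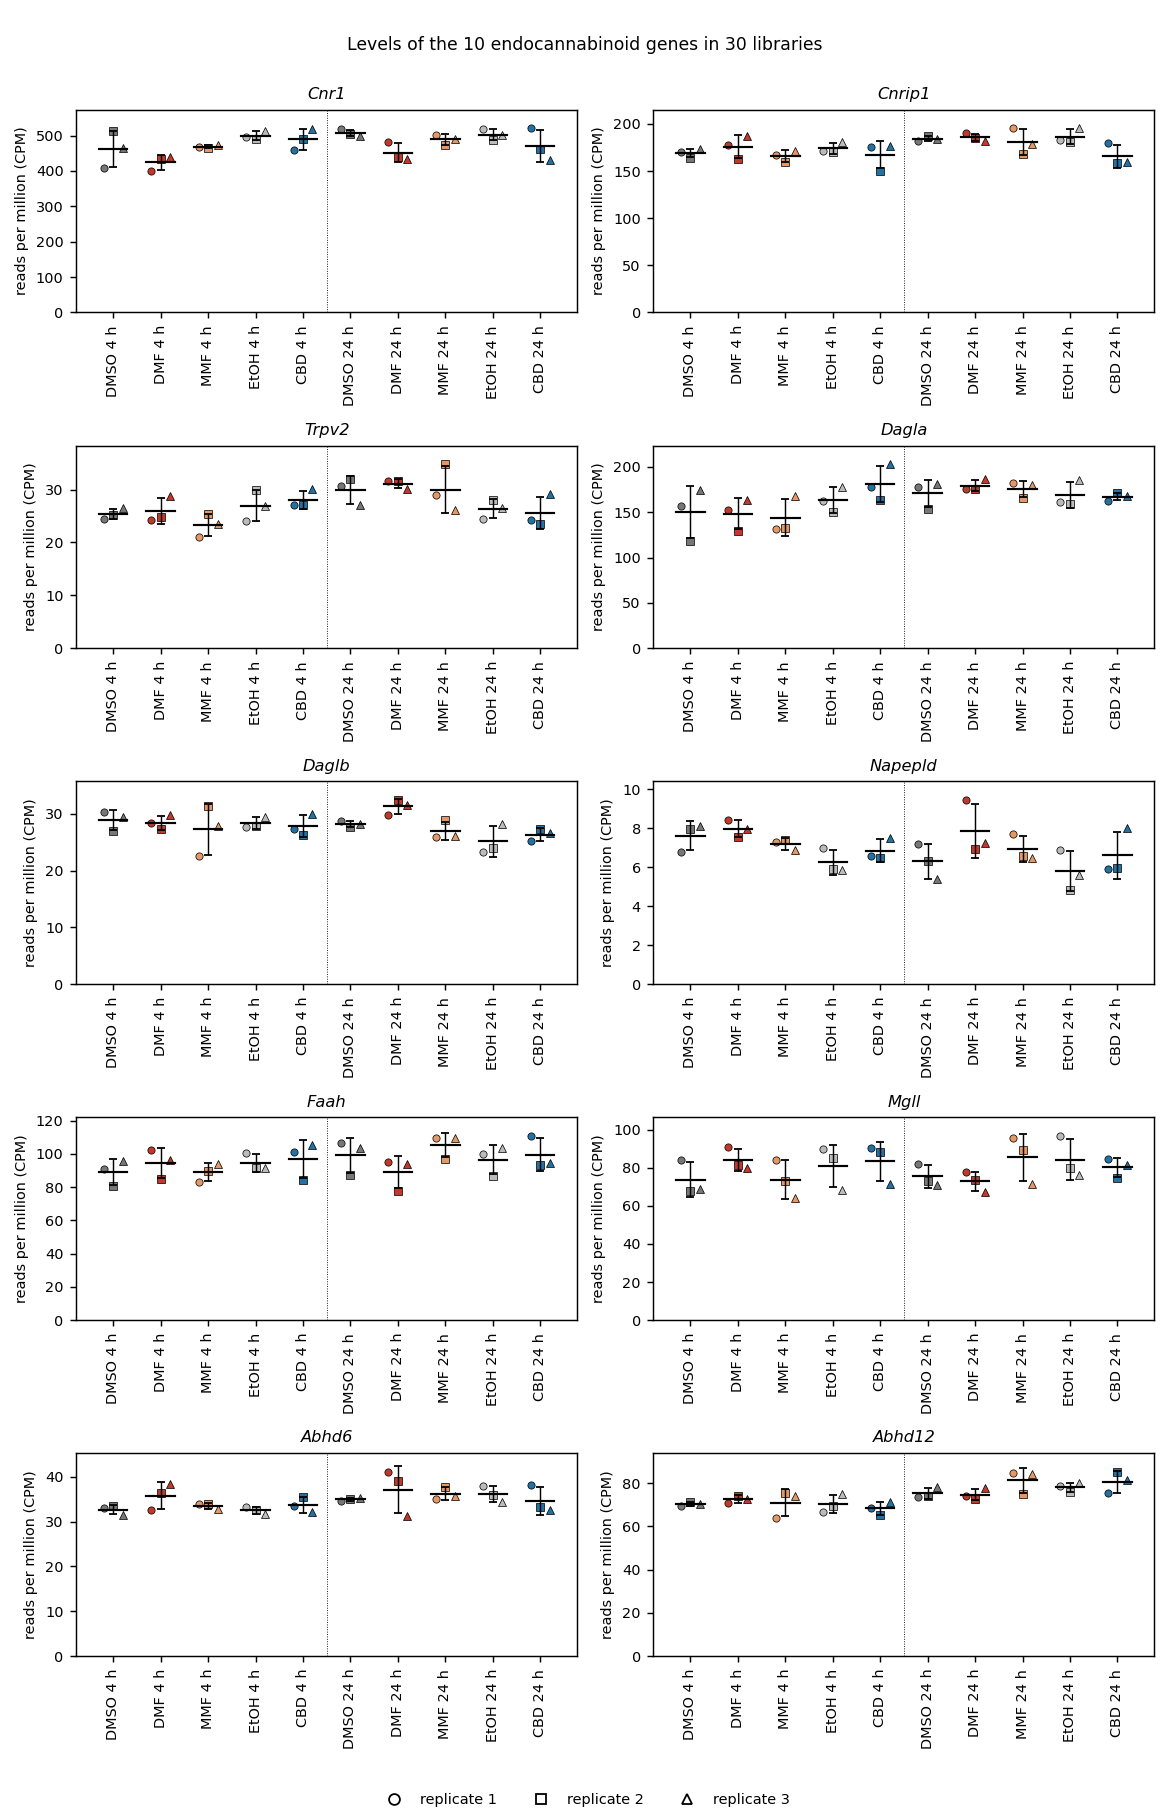
Level of each of the 10 genes in CPM (vertical axis, from 0) in the 30 libraries, by group (horizontal axis, 4 h left and 24 h right of the dotted line). Symbols mark the replicate number, horizontal bars the mean of 3 libraries and vertical bars the SD. All 10 genes were detected in all 30 libraries, and *Cnr1* lay between 400 and 521 CPM.

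Part of the spread followed the replicate number rather than the treatment. For *Mgll*, 52.7% of the variance of log2 CPM over the 30 libraries lay between replicate numbers, with means of 87.6, 78.7 and 72.1 CPM for the numbers 1, 2 and 3. For *Faah* it was 44.4%, with means of 100.1, 87.3 and 98.8 CPM, and for *Dagla* 33.6%. For *Cnr1* it was 0.0086%, the lowest share among the 10 members. The share between the 10 groups was 55.5% for *Cnr1*, below the 57.0% of *Trpv2* and the 65.0% of *Abhd12*. The shares of groups and of numbers are not comparable, since 10 groups take up more variance than 3 numbers even without an effect. The groups also differ in time and vehicle, not only in drug. The results with the number as a block are given wherever they change the call of a member, and for other genes of the pathway in the comparisons with vehicle.

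Of the 10 members, 0 were called in any of the 6 comparisons of a drug with its vehicle, by limma on the log2 of the value + 1 with an adjusted p under 0.05. With DMF, 3.41% of all genes tested were called at 4 h and 3.97% at 24 h. With MMF, the shares were 0% and 0.00707%, and with CBD they were 0.00705% and 0.114%. Without adjustment, 1 of the 60 values, with DMF at 24 h, had a p under 0.05 (limma). Of all genes, 20.1% and 17.4% did so with DMF at 4 and 24 h. With MMF it was 0.257% and 4.43%, and with CBD 3.97% and 9.83%. By edgeR and DESeq2 without a block, 0 members were called as well. With the block, limma called 1 member with DMF at 4 h and 1 at 24 h, against 23% and 12.9% of all genes. The log2 fold changes lay between -0.17 and 0.32. The 95% intervals without the block stayed within a 1.5-fold change in either direction for 58 of the 60 values. They stayed within a 2-fold change for all 60. The exceptions at 1.5-fold were *Napepld* with DMF at 24 h and with CBD at 24 h.

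**Figure D2:**
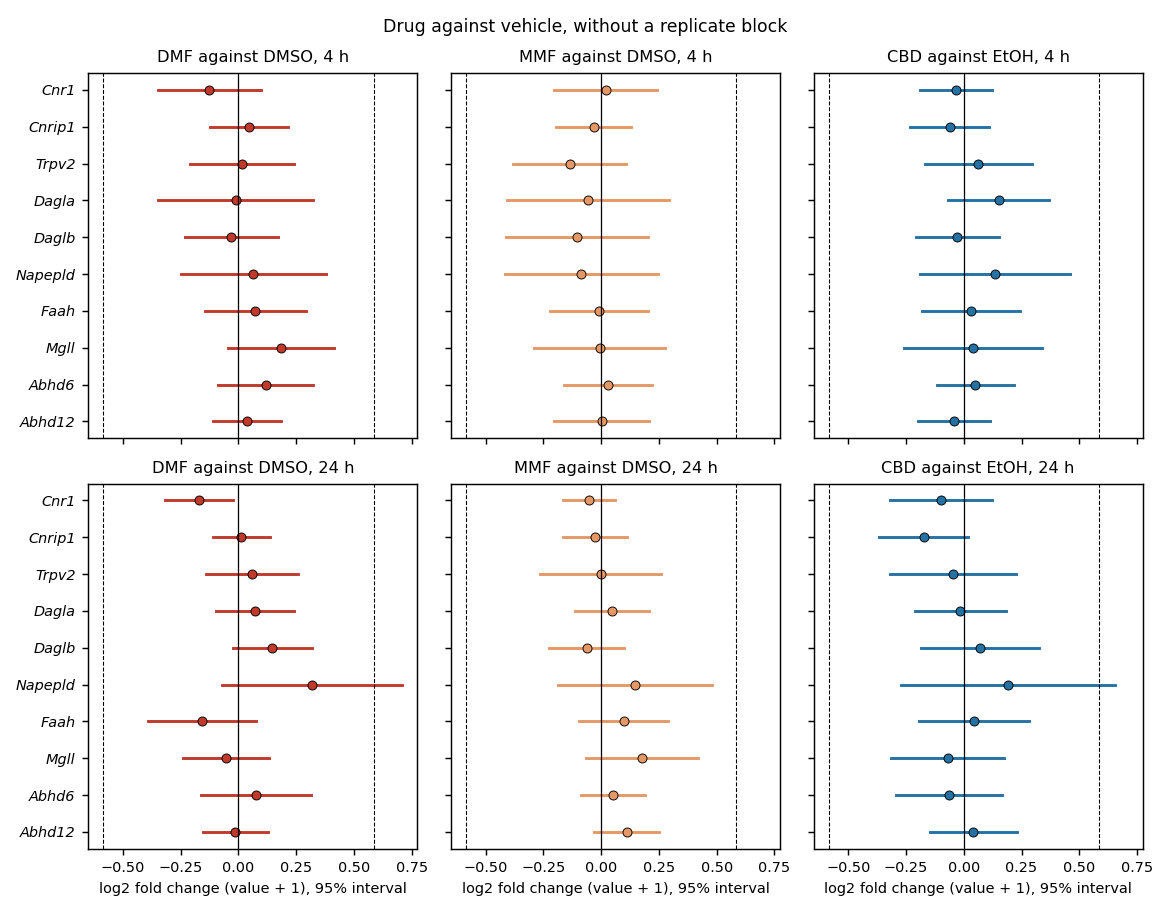
Log2 fold change of each gene (horizontal axis) in the 6 comparisons of drug with vehicle, as points with their 95% limma intervals without a replicate block; dashed lines mark a 1.5-fold change. Of 60 intervals, 58 lie between the dashed lines, and those of *Napepld* with DMF and with CBD at 24 h reach beyond.

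The medians of the 10 members were near those of all genes. With DMF the median log2 fold change of the members was 0.04 at both times, against 0.00 at 4 h and -0.01 at 24 h over all genes tested. With MMF the members' median was -0.02 at 4 h and 0.05 at 24 h, and with CBD it was 0.04 and -0.03.

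Among the receptors, *Cnr1* (chromosome 5, 48408574 to 48435099 in mRatBN7.2, the build of the tables) had the smallest p. The DMF libraries of 24 h held 8869, 8095 and 7999 normalized reads of *Cnr1*, and the DMSO libraries 9552, 9345 and 9191. All 3 DMF libraries lay below all 3 DMSO libraries. Groups lay apart, in either direction, for 22.8% of all genes of that comparison. The log2 fold change was -0.17 ± 0.07 (SE, n = 3 per group), with an adjusted p of 0.213 in limma. Blocking on the replicate number left the fold change the same, with an SE of 0.05 and an adjusted p of 0.0457 in limma. That fit called 12.9% of all genes, and edgeR with the block did not call *Cnr1*.

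In the other comparisons with vehicle, the groups of *Cnr1* overlapped. After 4 h of DMF the libraries held 7930, 8630.2 and 8781 normalized reads, against 8188, 10218 and 9319 with DMSO, and the log2 fold change was -0.13 ± 0.10. DMF was lower within each replicate number there, by 0.05 to 0.24 on the log2 scale, with an adjusted p of 0.540 and, with the block, of 0.0881. With CBD, the log2 fold change of the receptor was -0.03 at 4 h (95% interval -0.19 to 0.12) and -0.10 at 24 h (-0.32 to 0.12). With MMF it was 0.02 and -0.05.

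Since *Cnr1* is known for its high level in interneurons with cholecystokinin, marker genes of GABAergic interneurons were read beside it. With DMF at 24 h, *Cck*, the gene of cholecystokinin, fell by 0.60 on the log2 scale (adjusted p = 0.00804, limma), and it was the only one of 7 GABAergic markers that was called without the block. With the block, *Slc32a1*, the vesicular GABA transporter, and the neuropeptide gene *Npy* were called as well, lower by 0.33 and 0.41 (adjusted p = 0.0415 and 0.0313, limma with block). That fit called 12.9% of all genes. The other GABAergic markers did not move one way. Their means with DMSO and with DMF at 24 h were 124 and 138 CPM for *Sst* and 3.19 and 3.98 CPM for *Vip*. For *Gad2* they were 58.1 and 58.4 CPM, and for *Gad1* 131 and 115 CPM. The summed level of the 7 markers was 7121 to 9088 normalized reads with DMF and 8282 to 9509.6 with DMSO.

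The 7 general neuron markers were read there as well. Their median log2 fold change was -0.19, against -0.01 over all genes. Their sum was 55756 to 67185 normalized reads with DMF and 67777 to 73699 with DMSO, without overlap. *Tubb3*, which gave the most reads to this sum with DMSO, had means of 1336 CPM with DMSO and 960 CPM with DMF. Of the 7, 0 were called without the block, and 3 were lower with it, in a fit that called 12.9% of all genes. These were *Tubb3* by 0.49, *Nefl* by 0.29 and *Syt1* by 0.25 (adjusted p = 0.00227, 0.00755 and 0.00993, limma with block). The other markers did not move one way, with means for DMSO and DMF at 24 h of 361 and 368 CPM for *Syn1*. These means were 1133 and 1111 CPM for *Map2*, 396 and 394 CPM for *Snap25*, and 124 and 109 CPM for *Rbfox3*. With CBD at 24 h, *Gad1* and *Gad2*, which encode the enzymes that make GABA, fell by 0.81 and 0.84 (adjusted p = 0.0134 and 0.0104, limma), while *Cck* had a log2 fold change of -0.22 (adjusted p = 0.565). The summed level of the GABAergic markers was then 5785 to 6789 with CBD and 8718 to 9607 with EtOH, without overlap. The 7 general neuron markers then had a median log2 fold change of -0.24, with 0 called with or without the block. Their sum was 61792 to 64190 normalized reads with CBD and 65341 to 80367 with EtOH, also without overlap. Of the 5 glutamatergic markers, 0 were called without the block with DMF at 24 h. With the block, *Slc17a6* was higher by 0.33 and *Neurod6* lower by 0.38 (adjusted p = 0.0189 and 0.00304, limma with block). With CBD at 24 h, 0 of the 5 were called with or without the block. The part of neurons and interneurons in the values of *Cnr1* was not tested.

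*Cnrip1* (chromosome 14, 91462647 to 91492735) encodes a protein that binds the tail of the CB1 receptor. After 24 h of CBD its libraries held 3395, 2997 and 3017 normalized reads, against 3452, 3435 and 3713 with EtOH. All CBD libraries were lower than all EtOH libraries, as groups lay apart in either direction for 15.9% of all genes there. The log2 fold change was -0.17 ± 0.08 (adjusted p = 0.542, limma). The block within the 6 libraries left it uncalled (adjusted p = 0.267), and only the block with a spread estimated from all 30 libraries called it (adjusted p = 0.0408). In the remaining 5 comparisons, *Cnrip1* had log2 fold changes between -0.06 and 0.05.

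*Trpv2* (chromosome 10, 47272931 to 47294260) encodes a cation channel that CBD is known to open. With CBD it held 530.0, 532 and 584 normalized reads at 4 h, against 469, 588 and 524 with EtOH, and the groups overlapped. Its log2 fold change was 0.06 at 4 h (95% interval -0.17 to 0.29) and -0.04 at 24 h (-0.32 to 0.23). With the fumarates it lay between -0.14 and 0.06, and the groups overlapped in all 4 comparisons.

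Of the enzymes of synthesis, *Dagla* and *Daglb* encode the diacylglycerol lipases that make 2-AG, the first being the main one in adult brain. *Dagla* (chromosome 1, 206890638 to 206947232) held 3489, 3221 and 3959 normalized reads with CBD at 4 h, against 3177, 2944 and 3476 with EtOH. CBD was higher within every replicate number, by 0.14, 0.13 and 0.19 on the log2 scale, but the groups overlapped. The log2 fold change was 0.15 ± 0.09 (adjusted p = 1.00 in limma, 0.0848 with the block), and after 24 h it was -0.01.

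*Daglb* (chromosome 12, 11059732 to 11102154) held 547, 596 and 581 normalized reads with DMF at 24 h, against 530, 509 and 517 with DMSO. All DMF libraries lay above all DMSO libraries, so that 2 of the 10 members, *Cnr1* and *Daglb*, had groups without overlap there, against the 22.8% of all genes. The log2 fold change of *Daglb* was 0.15 ± 0.08 (adjusted p = 0.365 in limma, 0.241 with the block). In the other comparisons it lay between -0.10 and 0.07.

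*Napepld* (chromosome 4, 13361006 to 13398748) encodes the phospholipase D that releases anandamide from its membrane precursor, and its promoter holds the match nearest upstream of a start. It had the highest fold change of the 60 values. With DMF at 24 h its libraries held 172, 126 and 131 normalized reads, against 131, 115 and 97.0 with DMSO. The highest value came from replicate 1, and the groups overlapped although DMF was higher within each number. Its log2 fold change was 0.32 ± 0.17 (adjusted p = 0.392 in limma, 0.150 with the block), with a 95% interval from 0.95-fold to 1.64-fold. With CBD at 24 h it was 0.19 (0.83-fold to 1.57-fold), and replicate 1 was lower with CBD than with EtOH.

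Of the enzymes of breakdown, *Mgll* encodes monoacylglycerol lipase, which removes most 2-AG in brain. *Mgll* (chromosome 4, 121192195 to 121294179) held 1797, 1618 and 1591 normalized reads with DMF at 4 h, against 1685, 1353 and 1379 with DMSO. The groups overlapped through replicate 1 of DMSO, but DMF was higher within every replicate number, by 0.09, 0.26 and 0.21 on the log2 scale. This gave a log2 fold change of 0.19 ± 0.10 (adjusted p = 0.358, limma). With the block its SE was 0.06, and the adjusted p was 0.0292 in limma and 0.0299 in edgeR. That fit called 23% of all genes, and *Mgll* was the only member among them.

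After 24 h of DMF, *Mgll* had a log2 fold change of -0.05 ± 0.08, and the difference between the effects at 24 and at 4 h was -0.24 ± 0.14 (adjusted p = 0.365, limma, and 0.0628 with the block). With MMF at 24 h it held 1852, 1737 and 1387 normalized reads, against 1592, 1419 and 1371, with a log2 fold change of 0.18 ± 0.11 (adjusted p = 0.952, limma). With CBD the change was 0.04 at 4 h and -0.07 at 24 h.

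*Faah* (chromosome 5, 129479824 to 129498677) encodes the fatty acid amide hydrolase that degrades anandamide and that CBD is known to inhibit in rodents as a protein. With CBD the log2 fold change of the transcript was 0.03 at 4 h (95% interval -0.18 to 0.24) and 0.04 at 24 h (-0.19 to 0.28). With DMF at 24 h the libraries held 1750.3, 1431 and 1730 normalized reads, against 1966, 1608 and 1899 with DMSO. Within each number, DMF was lower by 0.13 to 0.17, whereas the groups overlapped because replicate 2 was low in both. The log2 fold change was -0.16 ± 0.10 (adjusted p = 0.489 in limma, 0.0832 with the block).

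*Abhd6* and *Abhd12* encode serine hydrolases that break down the remaining 2-AG. *Abhd6* (chromosome 15, 16859738 to 16906985) had log2 fold changes from -0.06 with CBD at 24 h to 0.12 with DMF at 4 h. *Abhd12* (chromosome 3, 139659317 to 139719564) had the lowest spread of effects among the hydrolases, from -0.04 with CBD at 4 h to 0.11 with MMF at 24 h. With MMF at 24 h, *Abhd12* held 1641, 1455 and 1626 normalized reads, against 1427, 1433 and 1505 with DMSO (adjusted p = 0.952, limma). All groups of both genes overlapped in the comparisons with vehicle.

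Within replicate numbers, a member moved the same way in all 3 pairs of drug and vehicle in 21 of the 60 cases. With DMF these were 4 members at 4 h and 5 at 24 h, against 53.6% and 47.4% of all genes. With MMF they were 2 and 6 members, against 15.5% and 35.2% of all genes, and with CBD they were 3 and 1, against 36.1% and 43%. The members were thus farthest above the share of all genes with MMF at 24 h and farthest below it with CBD at 24 h. Groups without overlap were found for 0 members with DMF at 4 h, where they were found for 26.3% of all genes. They were also found for 0 members with MMF at 4 h (2.76% of all genes), with CBD at 4 h (9.95%) and with MMF at 24 h (9.73%).

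**Figure D3:**
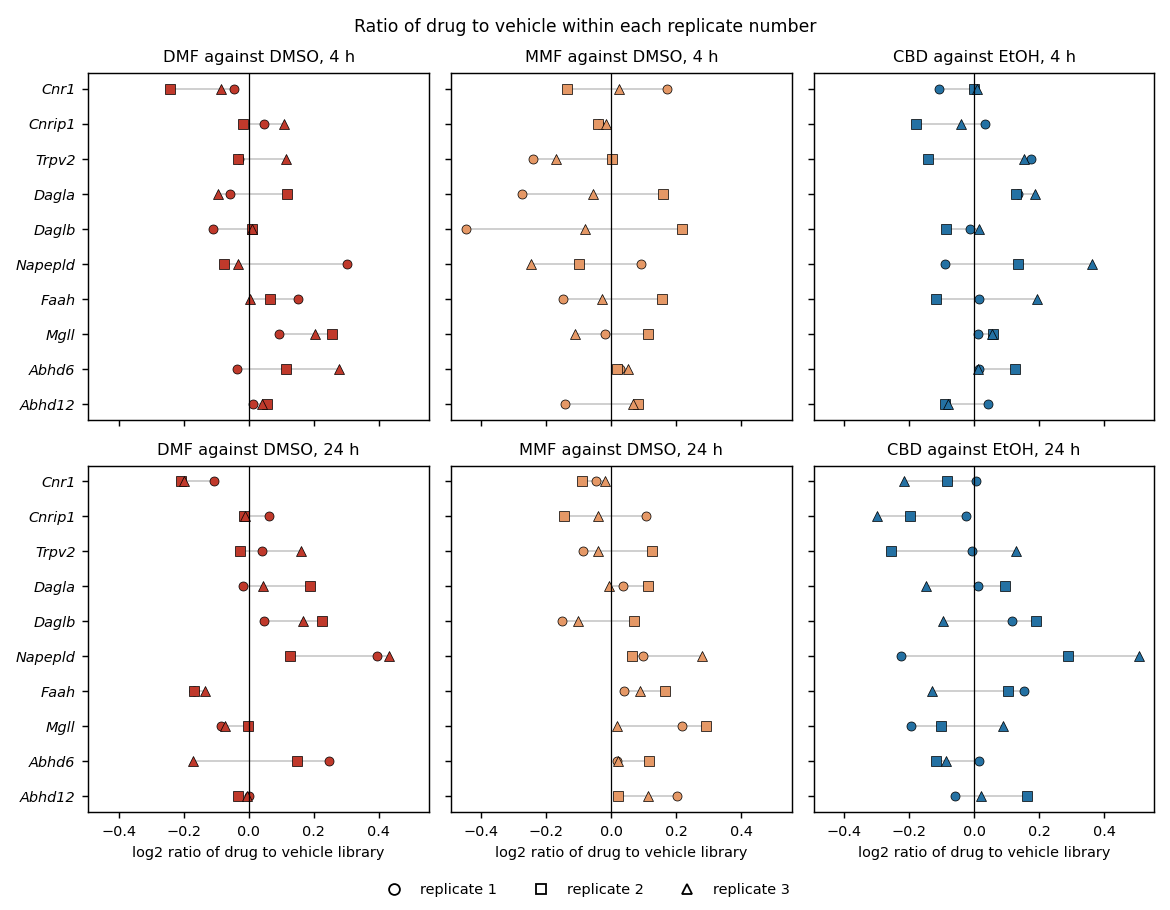
Log2 ratio of a drug library to its vehicle library with the same number (horizontal axis) for each gene, in the 6 comparisons; symbols mark the replicate number and grey lines join the 3 ratios. *Mgll* with DMF at 4 h and *Cnr1* and *Faah* with DMF at 24 h have all 3 ratios on 1 side of 0, whereas *Daglb* with MMF at 4 h spans -0.45 to 0.22.

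DMF and MMF differ by 1 methyl ester and were given at the same dose and in the same vehicle, so that they were compared directly, as 1 pair of compounds at both times. Without the block, 0 members were called, against 1.61% of all genes at 4 h and 3.56% at 24 h. At an unadjusted p under 0.05 (limma), there were 0 members at 4 h and 2 at 24 h, against 17.4% and 17.3% of all genes. By edgeR and DESeq2, 0 members were called. All 20 intervals of the difference stayed within a 1.5-fold change. With the block, limma called 2 members at each time, against 23.6% of all genes at 4 h and 12.2% at 24 h. Groups lay apart for 2 members at 4 h (*Cnr1* and *Napepld*) and 2 at 24 h (*Faah* and *Daglb*), against 24.2% and 22.7% of all genes.

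At 4 h these were *Cnr1*, lower with DMF than with MMF (log2 difference -0.15 ± 0.05, adjusted p = 0.0325, limma with block, against 0.380 without), and *Mgll*, higher with DMF (0.19 ± 0.06, adjusted p = 0.0358, against 0.429). *Cnr1* held 7852, 8535 and 8675 normalized reads with DMF and 9165, 9219 and 9405 with MMF, without overlap. At 24 h they were *Faah* and *Mgll*, both lower with DMF. *Faah* held 1935, 1582 and 1909 normalized reads with DMF and 2239, 1989 and 2233 with MMF, again without overlap (log2 difference -0.26 ± 0.06, adjusted p = 0.0193, limma with block, against 0.201). For *Mgll*, whose groups overlapped, the difference was -0.23 ± 0.07 (adjusted p = 0.0477, limma with block, against 0.332).

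With time in culture, 0 members were called between 24 and 4 h in any of the 5 treatments without the block. The share of all genes called was 15.5% with DMF, and it was 0% in each of DMSO, MMF, EtOH and CBD. At an unadjusted p under 0.05 (limma) the members numbered 3 with DMF, 3 with MMF, 1 with DMSO, 1 with CBD and 0 with EtOH. Of all genes, the shares were 31.2%, 10.5%, 9.75%, 6.98% and 2.76% in the same order. By edgeR and DESeq2, 0 members were called. With the block, limma called 3 members between the times of DMF, against 32.3% of all genes. *Dagla* was higher at 24 h (3596, 3596 and 3819 against 3105, 2642 and 3333 normalized reads), with a log2 difference of 0.28 ± 0.07 and an adjusted p of 0.00802 (limma with block, against 0.0730 without). *Trpv2* was higher by 0.27 ± 0.09 (adjusted p = 0.0355, against 0.0868) and *Mgll* lower by 0.20 (adjusted p = 0.0267, against 0.141).

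The groups of these 3 genes and of *Daglb* did not overlap between the times of DMF, 4 of the 10 members against 36.1% of all genes. Without the block but also without replicate 3 of DMF at 4 h, *Dagla* and *Trpv2* were called (adjusted p = 0.0361 and 0.0454, limma). In the vehicle, between 24 and 4 h of DMSO, *Dagla* differed by 0.20 ± 0.13 and *Trpv2* by 0.23 ± 0.09 (adjusted p = 0.630 and 0.484, limma). *Mgll* differed by 0.04 ± 0.10 there (adjusted p = 0.916, limma), against its -0.20 with DMF. The effect of DMF at 24 h minus its effect at 4 h was called for 0 members, against 4.12% of all genes. The same held for MMF (0% of all genes) and CBD (0%), and for the effect of CBD minus that of DMF at 4 h (0.999%) and at 24 h (0.391%), where doses and vehicles differed. No member had an unadjusted p under 0.05 (limma) in any of these 5 tests. Of all genes, 19.3%, 0.909%, 4.31%, 14.9% and 9.69% did, in the order given. Members called by edgeR and DESeq2 numbered 0. The differences lay between -0.24 and 0.25 on the log2 scale.

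The other genes of the pathway were read in lists chosen by their function. Of 12 other receptors of cannabinoids and fatty acid amides, 5 passed the filter on low counts. *Cnr2*, the gene of the CB2 receptor of immune cells, did not, with at most 5 reads in a library and 0 reads in 9 of the 30. *Gpr55* had at most 3 reads, *Gpr18* 7 and *Pparg* 11.

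*Trpv1*, the capsaicin receptor, which anandamide and CBD also open, was the only receptor called. With DMF at 4 h its libraries held 70.8, 59.5 and 67.8 normalized reads, against 22.9, 24.6 and 18.2 with DMSO. All DMF libraries were higher, and the log2 fold change was 1.56 ± 0.23 (adjusted p = 0.0178, limma). Leaving out each library in turn, it ran from 1.44 to 1.64, with an adjusted p of up to 0.0746, the call being lost without any of the 3 DMF libraries or without DMSO replicate 2 or 3. At 24 h *Trpv1* held 38.9, 43.5 and 27.3 normalized reads with DMF and 26.2, 20.5 and 26.1 with DMSO (log2 fold change 0.56, adjusted p = 0.311). With CBD at 24 h it held 32.1, 32.3 and 32.0 against 20.2, 21.2 and 21.7, without overlap (0.59, adjusted p = 0.478), and with MMF its log2 fold change was -0.22 at 4 h and -0.32 at 24 h. Between DMF and MMF at 4 h, *Trpv1* differed by 1.77 ± 0.26 (adjusted p = 0.0280, limma).

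Of 13 other enzymes of synthesis, 9 were tested with DMF at 4 h and 10 in the other comparisons, and 0 were called without the block. With the block 1 was called at each time of DMF, in fits that called 23% of all genes at 4 h and 12.9% at 24 h. These were *Gde1*, higher by 0.15 at 4 h, and *Abhd4*, higher by 0.33 at 24 h (adjusted p = 0.0476 and 0.0218, limma with block). Both encode enzymes of routes to anandamide. Of 6 other enzymes of breakdown and oxidation, 6 were tested and 0 were called in any comparison with vehicle without the block. With the block 3 were called with DMF at 4 h, in a fit that called 23% of all genes. *Alox15*, a lipoxygenase, was higher by 0.87 and the phospholipase gene *Ddhd1* by 0.25, and *Abhd16a*, a lipase gene, was lower by 0.22. Their adjusted p were 0.0334, 0.00994 and 0.0336 (limma with block), against 0.128, 0.122 and 0.291 without. *Alox15* had only 12 to 62 reads per library. Between 24 and 4 h of DMF, *Abhd16a* was higher at 24 h by 0.29 (adjusted p = 0.0413, limma without block), the only call of that list there.

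Among 5 carriers and receptor adaptors, *Fabp7* was the only one called without the block. It encodes a fatty acid-binding protein of astrocytes and radial glia that carries anandamide. With DMF at 24 h its libraries held 11620, 12366 and 9218 normalized reads, against 16890, 21879 and 16356, and it fell by 0.73 on the log2 scale (SE 0.14, adjusted p = 0.0235, limma). The call was lost without DMSO replicate 1 or 2 or DMF replicate 1 (adjusted p = 0.0875, 0.0676 and 0.0537) and with a spread estimated from all 30 libraries (adjusted p = 0.157). With the block *Fabp5*, another fatty acid-binding protein gene, was lower by 0.21 with DMF at 24 h (adjusted p = 0.0284, limma with block). *Fabp7* was lower by 0.15 with DMF at 4 h (adjusted p = 0.0454, limma with block, against 0.769 without). The fits with the block called 12.9% of all genes at 24 h and 23% at 4 h.

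Of 7 astrocyte markers, 6 were tested with DMF at 24 h, with a median log2 fold change of -0.22, and 1 was called without the block, *Aldh1l1*, which fell by 0.65. The markers did not move one way. With the block *Gfap* was higher by 0.76, and *Aqp4* and *Slc1a3* were lower by 0.71 and 0.20 beside *Aldh1l1* (adjusted p = 4.17e-05, 0.00144 and 0.0325, limma with block). That fit called 12.9% of all genes. The sum of the list, which *Gfap* leads, was 51624 to 90955 with DMF and 46639 to 78545 normalized reads with DMSO. In the oligodendrocyte lineage 3 of 7 markers fell with DMF at 24 h, by 1.13 to 1.56. The part of glia in the value of *Fabp7* was not tested.

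Of 10 G proteins and upstream glutamate receptors, 9 were tested. *Grm5*, the glutamate receptor mGluR5, whose activation starts the synthesis of 2-AG, was the only one called in a comparison with vehicle without the block. With DMF at 24 h it held 3267, 3117 and 3540.0 normalized reads, against 4019.9, 3955 and 4328 with DMSO, and it fell by 0.31 on the log2 scale (SE 0.07, adjusted p = 0.0436, limma). The call was lost in edgeR (adjusted p = 0.0520), without the filter on low counts (0.0502), with the spread of all 30 libraries (0.207) and without any of 5 of the 6 libraries (0.0963 to 0.173). With the block it had an adjusted p of 0.00272 in limma.

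The block also called *Gnaq*, the G protein subunit through which mGluR5 acts, higher by 0.23 with DMF at 24 h (adjusted p = 0.0193, limma with block). At 4 h it called *Gnai3*, a subunit of the inhibitory G proteins, higher by 0.18 with DMF (adjusted p = 0.0162, limma with block). The fits with the block called 12.9% of all genes at 24 h of DMF and 23% at 4 h. Between 24 and 4 h of DMF, *Gnai3* was lower at 24 h by 0.35 (adjusted p = 0.0187, limma without block), the only call of the list there. Between DMF and MMF, *Fabp7* was also lower with DMF at 24 h, by 0.84 on the log2 scale (adjusted p = 0.0127, limma).

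**Figure D4:**
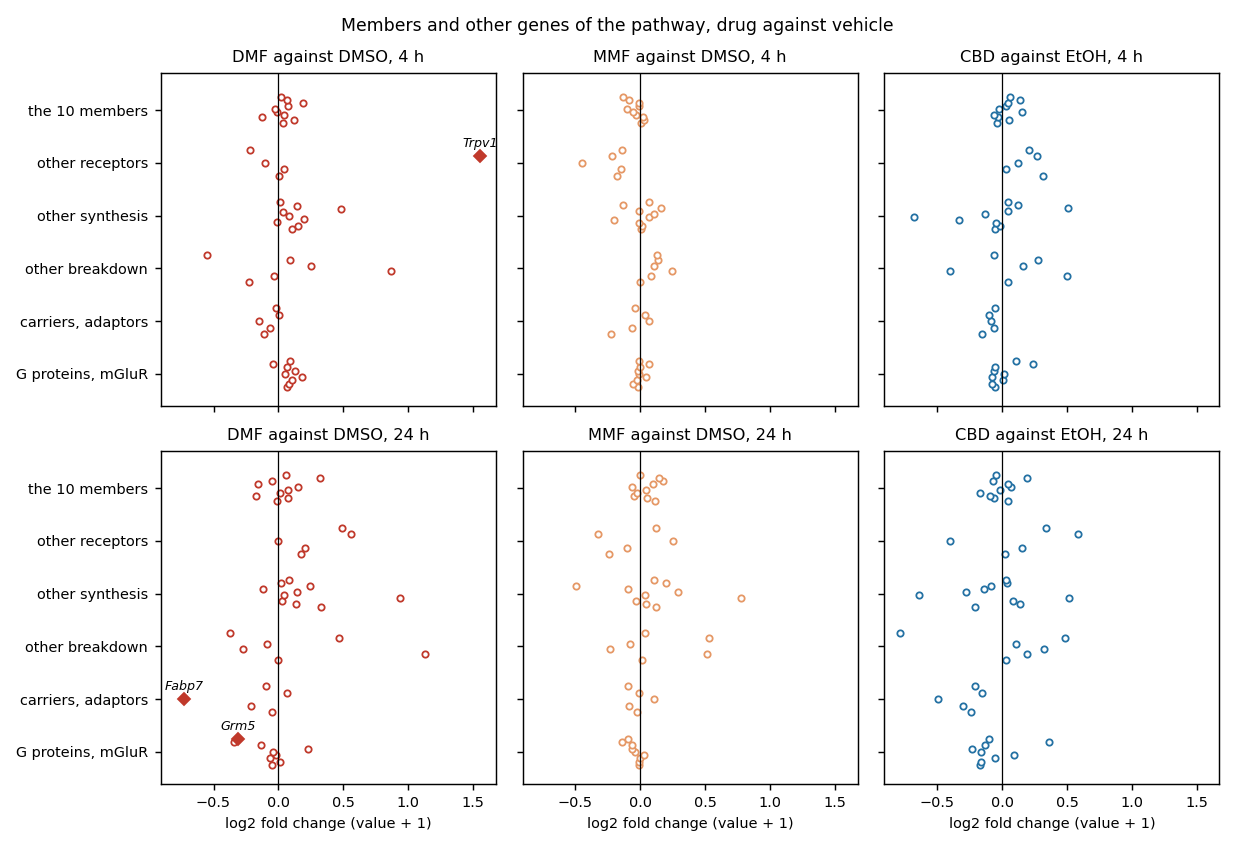
Log2 fold change (horizontal axis) of the 10 members and of the tested genes of 5 other pathway lists (rows) in the 6 comparisons of drug with vehicle. Open circles are genes that were not called and filled diamonds those called by limma without a block; these are *Trpv1* at 1.56 with DMF at 4 h, and *Fabp7* at -0.73 and *Grm5* at -0.31 with DMF at 24 h.

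Correlations between members over the 30 libraries were mostly weak. Among the 45 pairs of members, the median Pearson correlation of log2 CPM was 0.16 after the mean of each replicate number was removed and 0.11 before. The highest was that of *Dagla* and *Trpv2* (0.60 after removal), followed by *Faah* and *Abhd12* (0.53), and the lowest was that of *Cnr1* and *Napepld* (-0.38). These points share libraries and depth, so that the correlations are descriptions.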

How the data were processed

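RNA-seq libraries of rat neurons were made from poly(A)+ RNA. Per the labels and the paper's methods, the authors used Cutadapt 4.4 and Trimmomatic 0.39 for trimming, HISAT2 2.2.1 for alignment (mRatBN7.2), HTSeq 2.0.3 for counting (Ensembl release 111) and DESeq2 1.40.2 for normalization. The strand setting is not given in the sources used here. The deposited signal values are gene counts after division by a size factor that DESeq2 gave each library among the 6 of its table, so that the values of a vehicle differ between tables. From the series 13 of the tables entered, and the other 6 were not used here, since those compare drugs in different vehicles or the vehicles with each other. The columns of the authors' own fold changes and p-values were not used. Whole reads were recovered for 100% of the values (tolerance 0.01) and gave the depth. Values were not divided by length.

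Groups were compared with limma 3.58.1 (R 4.3.3), whose empirical Bayes step allowed for a mean trend, on log2 of the value + 1 in the 6 libraries of each table. Low genes were removed with filterByExpr (edgeR 4.0.16) applied to recovered reads. The Benjamini-Hochberg adjustment covered every gene tested, and a gene with an adjusted p under 0.05 was called. Count tests on the recovered reads were alternatives and called between 0 and 2279 genes in edgeR and between 0 and 2594 in DESeq2 1.42.0. Differences between effects were fitted as interactions in 12 libraries, after median-ratio scaling of the recovered reads. The scripts were tested on simulated data.

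The members and lists were chosen with earlier results of these data known. All 10 members are named. From the pathway lists, genes that were called in a comparison of a drug with its vehicle are named, at most 3 for each list and comparison by the smallest p; *Abhd16a* and *Gnai3* between the times of DMF, the genes called only with the block, *Cnr2*, *Gpr55*, *Gpr18*, *Pparg* and the marker genes were named after their values were seen. Results of 1 gene of the lists are not reported here. The symbols *Gng2* and *Cldn5* of the lists matched no gene ID.

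Replicate numbers 1 to 3 recur in all groups. The correlation of deviations from the group means between libraries of the same number lay between 0.112 and 0.620 in 13 comparisons. These were above the 0.1 set for pairing, and the highest between different numbers was 0.168. The numbers were thus taken as pairs in the fits with a block and in the ratios within a number. Between 24 and 4 h of DMSO, however, the lowest for the same number (0.112) was below the highest between different numbers (0.153). The main test has no block, since the methods name none. Alternatives were the block in limma and edgeR, edgeR, DESeq2, TMM scaling, no filter on low counts, a pseudocount of 0.1, the spread of all 30 libraries with and without the block, and leaving out each library. Figures were drawn in Python 3.11.15 with matplotlib 3.10.9.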

Additional observations from a re-analysis of the deposited data

How the results depend on the processing

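The number of members called was 0 in all 18 comparisons without a block, and it stayed 0 under edgeR, DESeq2, TMM scaling, no filter, a pseudocount of 0.1 and the spread of all 30 libraries. With the replicate number as a block, limma called 1 member with DMF against DMSO at 4 h, 1 at 24 h, 2 between DMF and MMF at 4 h, 2 at 24 h, and 3 between 24 and 4 h of DMF. The block in edgeR called 1, 0, 2, 1 and 3 in the same comparisons. The block with the spread of all 30 libraries called 1 with CBD against EtOH at 24 h, 2 between DMF and MMF at 24 h, and 3, 4 and 1 between 24 and 4 h of DMF, MMF and CBD. For MMF these were *Trpv2*, *Dagla*, *Abhd12* and *Faah*, and for CBD *Abhd12*. For the edgeR block and the block with the spread of all 30 libraries, the shares of all genes called are not given here. Their counts of members are therefore not compared with all genes. The block changed no other count of members called. Leaving out each library gave 0 to 2 members between the times of DMF (2 without replicate 3 of DMF at 4 h) and 0 elsewhere. Of the 900 member values under alternatives to the 6 comparisons with vehicle, 896 stayed uncalled, 55 of these with the other sign, and 4 were called, all with a block. The call of *Trpv1* with DMF at 4 h and those of *Fabp7* and *Grm5* at 24 h were rerun under the same alternatives after the data were seen: of 45 values, 28 stayed called and 17 did not, all in the same direction. The cause of these changes was not tested. With 3 libraries per group, the 95% intervals allow changes of up to 1.64-fold in *Napepld*, which had 78 to 190 reads per library.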
